A study of Mus musculus with 2 samples.

Results

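The genes described here make microRNAs, carry out silencing by them, or act on circular RNAs. They were chosen by symbol, from a list of 35. Of these symbols, 33 were found in a table of 22383 genes. Ago4 is not analysed here, and Ddx39a is listed in the table under its older symbol Ddx39, so its values are given apart from the 33. RNA came from iHFSC2, an immortalized mouse line labelled as hair follicle stem cells. One stable line had been infected with the lentivirus pwslv-shcircSmad5, whose hairpin is directed at circSmad5, a circle spliced from Smad5 exons. The control line carried the empty vector and no hairpin. Both lines were selected with puromycin from day 4 after infection and were stable at day 15. There was 1 library per line, so no difference below has a replicate check or a test. Effects of the knockdown, of expressing any hairpin and of selecting separate lines cannot be told apart. The gene-level counts give no level of circSmad5, so whether the circle was reduced is not shown here.

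MicroRNA genes are transcribed as long primary transcripts, from which the nuclear Microprocessor cuts a hairpin. The hairpin is exported, cut again by Dicer, and 1 strand is loaded into an Argonaute protein, which silences matching messages with a GW182 partner. A short hairpin expressed from a vector enters this route at export and uses the same Dicer and Argonaute proteins. Circular RNAs arise when a splice donor is joined to an acceptor upstream of it, which paired intron repeats and some RNA-binding proteins favour and which editing or unwinding of the repeats opposes. Without free ends, circles escape exonucleases, and their export and decay need other factors.

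The hairpin's target is shown because it defines the knockdown and because it enters the pathway described. It is written 5′ to 3′, and the capitals mark the bases that come from the upstream exon.
hairpin target: tccagcagagGACTTGCACTA
The first 10 bases are the end of a Smad5 exon on GRCm38 chromosome 13 (56728510 to 56728629, plus strand), and the last 11 are the start of an exon upstream of it (56723429 to 56723996). No linear Smad5 transcript of GENCODE M21 held all 21 bases. The longest run in them was 14, which was also the longest in any other gene. Smad5 had 3109 (empty vector) and 3413 (shcircSmad5) gene-level counts, a log2 ratio of 0.10 (counting interval 0.03 to 0.18). In transcripts of the 33 genes and Ddx39, the longest run shared with the target was 7 to 10 bases. It was 10 in Adar, Mbnl1, Tarbp2 and Xrn1. Of all genes apart from Smad5, these included, 8.59% had a run of 10 or more. With the target's reverse complement, the longest run among the 33 genes and Ddx39 was 11 bases, in Dis3. Ago2, G3bp2, Mettl3, Tnrc6a and Tnrc6c shared 10 bases with the reverse complement. The share over all genes is not given here for that strand.

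The libraries held 39261010 (empty vector) and 38382081 (shcircSmad5) gene counts. Of 11 keratinocyte and follicle stem cell markers, 8 reached 20 counts in either library, with a summed level of 11319 (empty vector) and 12700 (shcircSmad5) CPM, which is counts after scaling both libraries to equal size. Krt5 and Krt14 made up most of that sum and were above 0 in log2 ratio (0.09 and 0.45), while 5 of the 8 were below 0. Among these, Krt15 had 253 and 79 counts, 3.27-fold lower and past the size rule given below, and Sox9 had 8829 and 5301, 1.70-fold lower. The bulge marker Cd34 was at 0 in both libraries and Lgr5 is not analysed here. The fibroblast markers summed to 4.19 and 1.68 CPM, with Col1a1, Dcn and Lum at 0 in both libraries. The melanocyte markers summed to 22.2 and 11.7 CPM, nearly all from Mitf (829 and 426 counts). The immune sums were 6.69 and 5.74 CPM and the endothelial sums 2.97 and 0.790. The part of these shifts in the results below was not tested.

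None of the 33 genes differed 2-fold between the lines. A gene was called by size when either library gave it 20 counts or more, the scaled counts differed 2-fold or more, and the 95% counting interval did not include 1. This size rule picked 14.7% of 13596 genes. The genes studied here were well counted, with 577 to 27320 counts per library. All 33 had 658 counts or more in the library where they were higher. Of the 7855 protein-coding genes counted that well, the rule picked 4.15%. At 1.5-fold, 2 of the 33 were lower (Qk and Adarb1) and none was higher. At that limit 12.9% of all genes were lower and 13.9% higher, and 10.2% and 4.18% of the well-counted coding genes. The counting interval left out 1 for 18 of the 33 on the higher side and for 11 on the lower side. The same held for 34.9% (higher) and 38.5% (lower) of all genes, and for 34.0% and 48.6% of the well-counted coding genes. These exact Clopper-Pearson intervals cover only how reads divide between the libraries and hold no spread between cultures. The reads carried no molecular identifiers, so copies of 1 molecule may be counted apart. The intervals may thus be too narrow even for counting error.

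The median log2 ratio (shcircSmad5 over empty vector) was 0.09 over the 33 genes, against -0.02 over all genes and -0.07 over the well-counted coding genes. The mean over the 33 was -0.0028, so median and mean differ in sign. The middle 50% of the well-counted coding genes ran from -0.32 to 0.17. Of the 33, 14 lay inside it, 12 above and 7 below. By level per length, the FPKM values ran from 2.06 to 92.5 in the control line (median 9.84) and from 2.48 to 76.0 in the hairpin line (median 10.4). In both libraries Ago3 was the lowest and the exonuclease gene Xrn2 the highest.

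**Figure D1:**
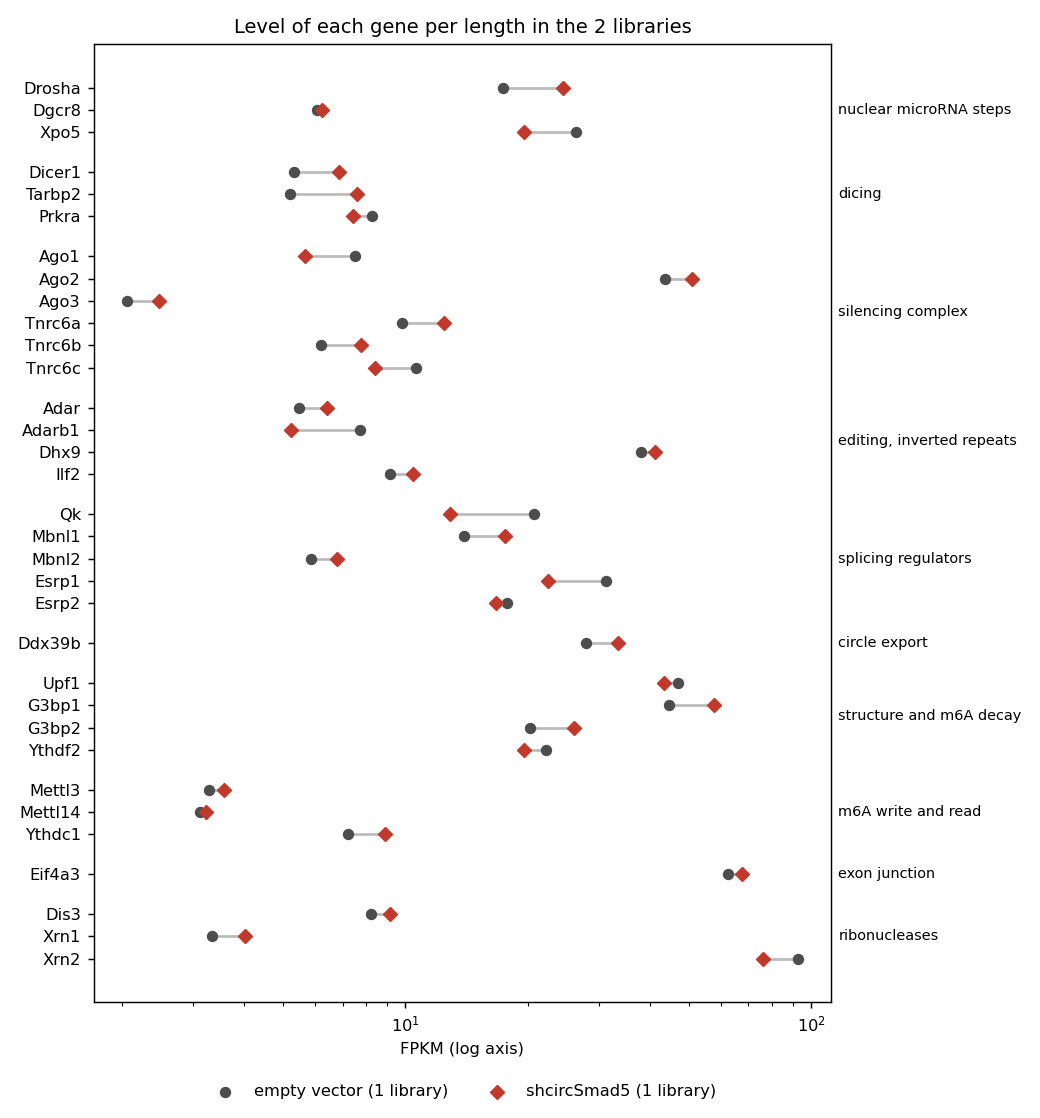
FPKM of each of the 33 genes on a log axis, with a grey dot for the empty vector library and a red diamond for the shcircSmad5 library, grouped by role. Levels span 2.06 to 92.5 in the empty vector library, and the paired points lie close together compared with that span.

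**Figure D2:**
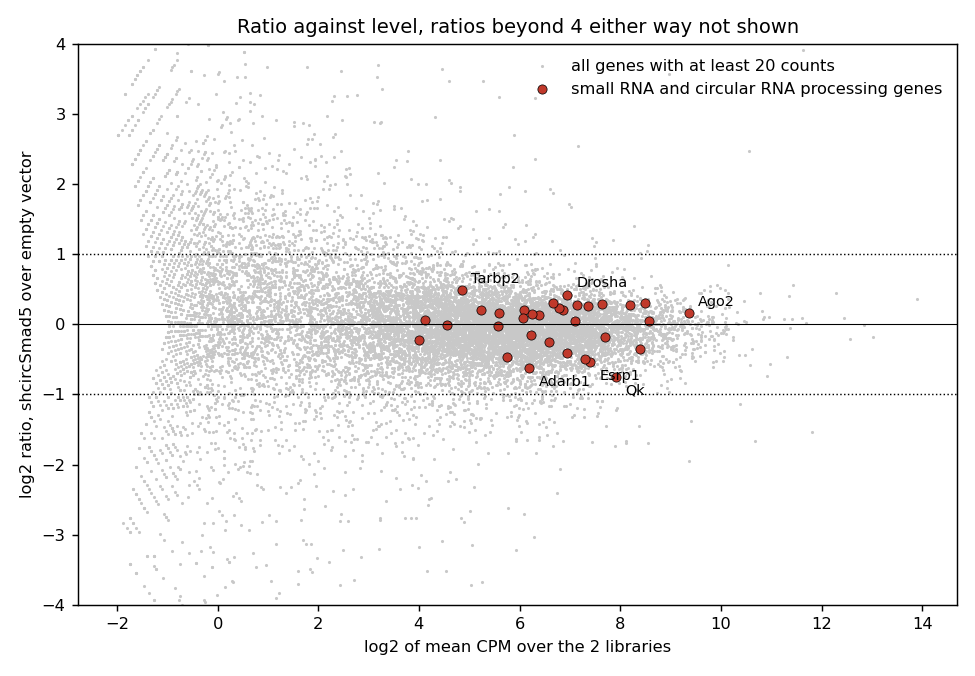
Log2 ratio (shcircSmad5 over empty vector) against log2 of the mean CPM for all genes with at least 20 counts (grey) and for the 33 genes (red). All 33 lie between the dotted 2-fold lines, and the grey points spread widest at low level.

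In the nucleus, Drosha and Dgcr8 form the Microprocessor, the nuclease and its RNA-binding partner. In what follows, paired values give the empty vector library first and the shcircSmad5 library second. Drosha (chromosome 15, 12824815 to 12935291) had 4057 and 5565 counts, or 17.4 and 24.4 FPKM. Its log2 ratio was 0.43 (0.37 to 0.48), at percentile 91.5 of the well-counted coding genes. Dgcr8 had 1826 and 1841 counts and a log2 ratio of -0.02 (-0.11 to 0.08). Drosha was higher, and Dgcr8 was level within its counting interval. Xpo5 (chromosome 17, 46202782 to 46243598), which exports the precursor hairpins, had 7104 and 5164 counts, or 26.4 and 19.6 FPKM. It was 1.40-fold lower (1.35 to 1.46), a log2 ratio of -0.49. Genes of chromosome 17 had a median of -0.38, and with each chromosome set to its own median Xpo5 was at -0.11.

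At the dicing step, Dicer1 had 3492 and 4404 counts, a log2 ratio of 0.30 (0.24 to 0.37). Its double-stranded RNA binding partners differed in direction. Tarbp2 (chromosome 15, 102518192 to 102523676) had the highest log2 ratio of the 33, at 0.49 on 927 and 1327 counts, which is 1.40-fold (1.29 to 1.53). Prkra had 658 and 577 counts, a log2 ratio of -0.22 (-0.38 to -0.06), with the widest interval of those that excluded 0. Drosha and Tarbp2 share chromosome 15, whose genes had a median of 0.20. Centred on it they were at 0.23 and 0.29, and Dicer1, on chromosome 12, was at 0.22 on its own chromosome's median.

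Among the Argonautes, Ago2, the slicing member, supplied most of the family's message. It had 23988 and 27320 counts, or 43.5 and 50.7 FPKM, and a log2 ratio of 0.16 (0.13 to 0.18). Its share of the summed FPKM of Ago1, Ago2 and Ago3 was 82.0% and then 86.2%. Ago1 had 2389 and 1768 counts (7.49 and 5.67 FPKM), 1.38-fold lower (1.30 to 1.47). Ago3 had 1343 and 1576 counts, a log2 ratio of 0.20 (0.09 to 0.31). Ago1 (126435012 to 126468583) and Ago3 (126331704 to 126429556) are neighbours on the minus strand of chromosome 4, yet lay on opposite sides of 0. The Ago1 to Ago3 split, which no library scaling can move, shifted by -0.67 on the log2 scale (exact counting interval -0.80 to -0.53). The Ago2 to Ago3 split shifted by -0.04 (-0.15 to 0.07).

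The GW182 proteins, encoded by Tnrc6a, Tnrc6b and Tnrc6c, tie Argonautes to the deadenylases. Tnrc6a had 4907 and 6068 counts and Tnrc6b 5746 and 7065, with log2 ratios of 0.28 (0.22 to 0.33) and 0.27 (0.22 to 0.32). Tnrc6c had 5361 and 4138 counts and a log2 ratio of -0.40 (-0.46 to -0.34). Tnrc6c was the most abundant of the family per length in the empty vector library, with 39.9% of the summed FPKM. In the shcircSmad5 library Tnrc6c held 29.3% and Tnrc6a led with 43.5%. By CPM, without length, Tnrc6b led in both libraries, with 35.9% and 40.9% of the family's sum. The CPM share of Tnrc6c was 33.5% and 24.0%. The Tnrc6a to Tnrc6b split shifted by 0.01 (-0.07 to 0.08) and the Tnrc6a to Tnrc6c split by 0.68 (0.60 to 0.76).

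**Figure D3:**
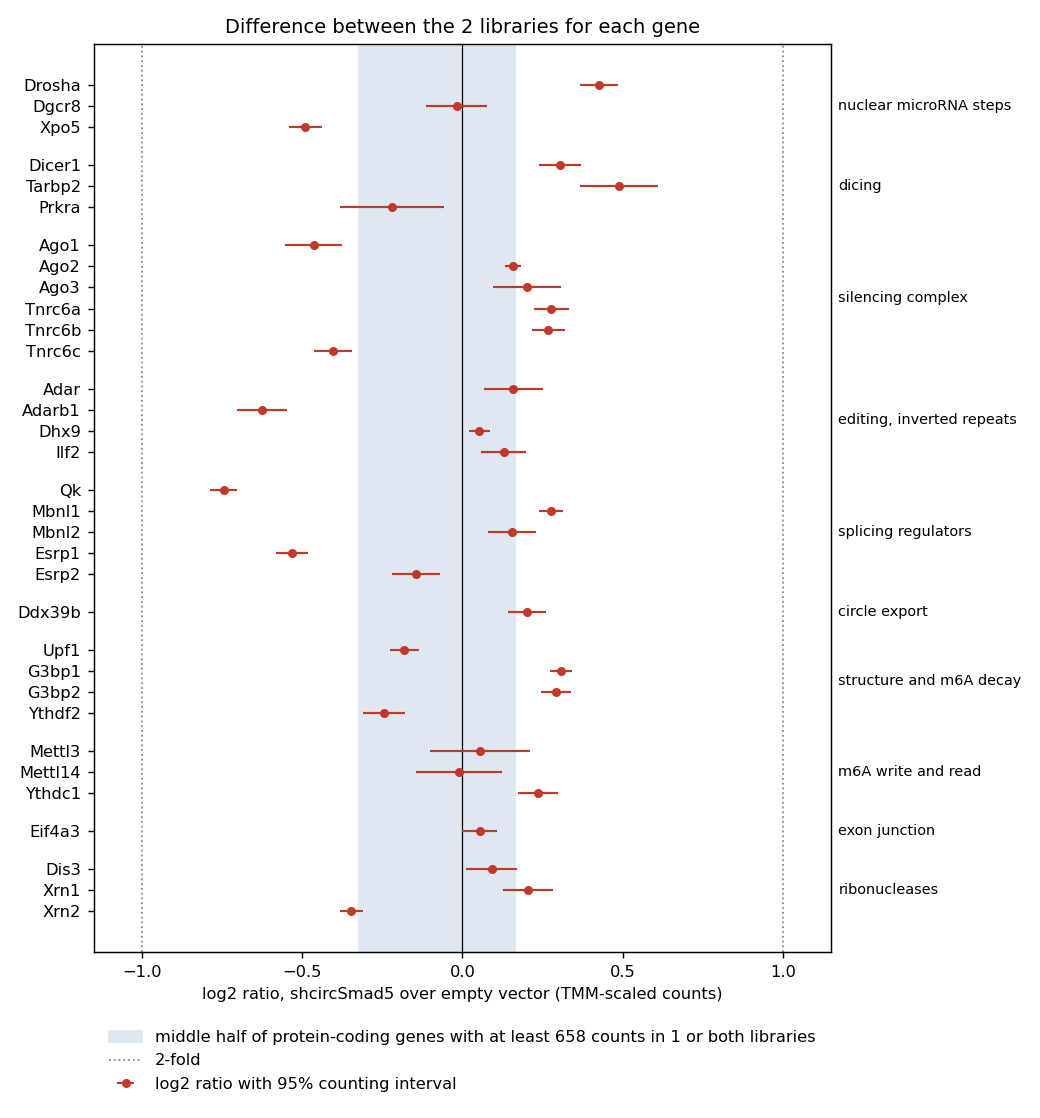
Log2 ratio (shcircSmad5 over empty vector) of each gene with its 95% counting interval, grouped by role, over a shaded band for the middle 50% of the well-counted coding genes (-0.32 to 0.17). Qk and Adarb1 lie farthest to the left and Tarbp2 and Drosha farthest to the right, all within 2-fold.

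Adar edits adenosine to inosine in double-stranded RNA and can open the paired repeats that flank circle-forming exons, and Adarb1 encodes a related editor. Adar had 1748 and 1993 counts (5.48 and 6.40 FPKM), a log2 ratio of 0.16 (0.07 to 0.25). For Adarb1 (chromosome 10, 77290726 to 77418270) the counts were 3417 and 2261 (7.72 and 5.23 FPKM), a 1.54-fold lower level (1.46 to 1.63). The order of the pair per length turned over, with Adar at 0.710 times the FPKM of Adarb1 in the control line and 1.22 times in the hairpin line. By CPM, without length, Adarb1 led in both libraries, with 66.16% and 53.15% of the pair's sum. The Adar to Adarb1 split shifted by 0.78 on the log2 scale (0.66 to 0.91), the largest shift of the families compared. With chromosome 10 centred, Adarb1 was at -0.70, the only one of the 33 still past 1.5-fold. The helicase gene Dhx9, whose product unwinds repeat-derived duplexes, had 14347 and 15193 counts (log2 ratio 0.05, 0.02 to 0.09). Ilf2, whose partner protein binds such duplexes, had 3081 and 3438 (0.13, 0.06 to 0.20).

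The splicing regulators held the gene with the lowest ratio of the set. Qk encodes Quaking, which binds introns beside circle-forming exons and promotes circularization in mesenchymal transition. Qk (chromosome 17, 10202601 to 10319854, minus strand) had 11581 and 7057 counts, or 20.7 and 12.9 FPKM. It was 1.68-fold lower (1.63 to 1.73), a log2 ratio of -0.74, at percentile 6.09 of the well-counted coding genes. Qk lies on chromosome 17 with Xpo5, and centred on that chromosome's median its log2 ratio was -0.36, which is under the 1.5-fold limit. The third gene of the set on chromosome 17, Ddx39b, had a log2 ratio of 0.20, or 0.58 when centred, which is just under 1.5-fold.

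Esrp1 and Esrp2 keep epithelial splice forms. Esrp1 (chromosome 4, 11331933 to 11386783) had 7707 and 5446 counts (31.1 and 22.5 FPKM), a log2 ratio of -0.53 (-0.58 to -0.48), and Esrp2 had 3025 and 2791, a log2 ratio of -0.15 (-0.22 to -0.07). Centred on their chromosomes they were at -0.33 and -0.01. The share of Esrp1 in their summed FPKM was 63.7% and 57.3%. The muscleblind genes were on the other side. Mbnl1, whose fly relative binds a circle made from its own gene, had 10232 and 12649 counts (log2 ratio 0.28, 0.24 to 0.31), and Mbnl2 had 2753 and 3128 (0.15, 0.08 to 0.23). Mbnl3, a paralogue outside the 33, had 3787 and 3383 (-0.19, -0.26 to -0.13). The share of Mbnl1 in the family's FPKM was 45.2% and 51.1%.

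**Figure D4:**
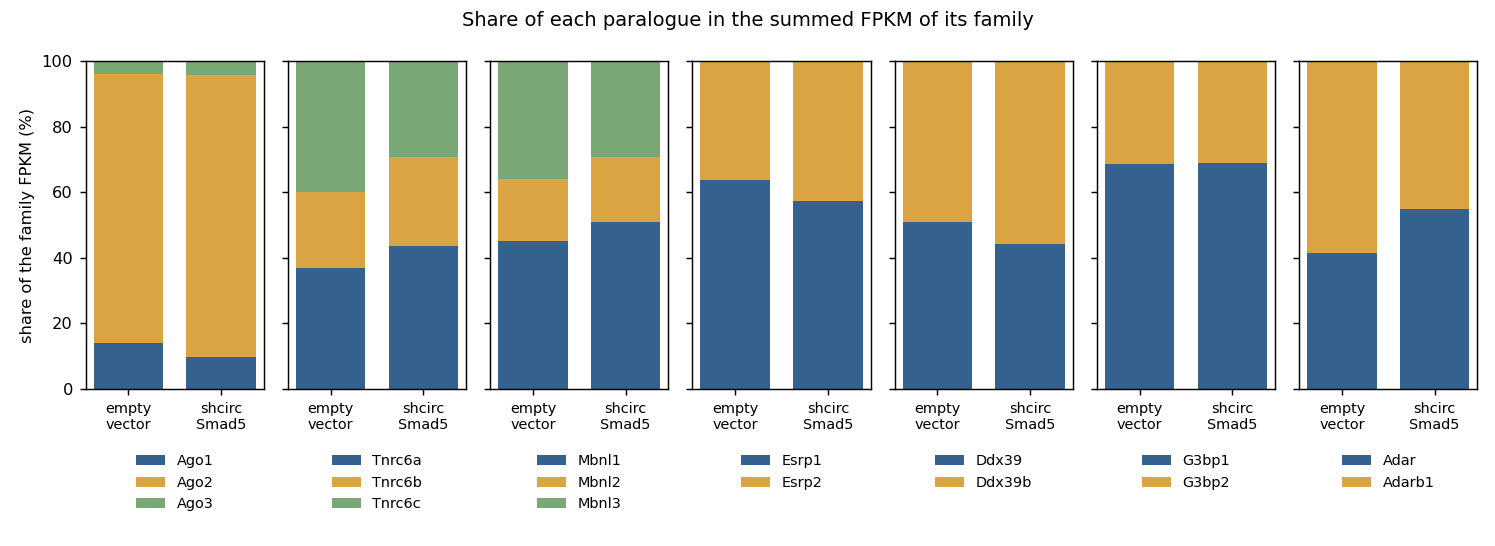
Stacked bars of each paralogue's share of its family's summed FPKM (%), with the empty vector library at left and the shcircSmad5 library at right in each panel. Adar and Adarb1 change order (Adar 41.5% and 55.0%), the Tnrc6c share is smaller in the shcircSmad5 library, and the G3bp bars are level.

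Ddx39b and Ddx39a are paired helicases that export circles according to their length. Ddx39b had 4128 and 4848 counts (log2 ratio 0.20, 0.14 to 0.26), and Ddx39, the older symbol of Ddx39a, had 5833 and 5267 (-0.18, -0.23 to -0.12). Ddx39b made up 49.1% of their summed FPKM in the control line and 55.6% in the hairpin line. By CPM, without length, Ddx39b was the smaller of the pair in both libraries, with 41.4% and 47.9%. Of the bases in Ddx39 exons, 17.4% lie under exons of a gene on the opposite strand, and the strand setting of the counting is not given in the sources used here.

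For decay, Upf1 and G3bp1 take part in the removal of structured RNAs, circles included, and Ythdf2 recruits decay enzymes to RNAs that carry the m6A mark. G3bp1 had 12344 and 15584 counts and G3bp2 6906 and 8635, with log2 ratios of 0.31 (0.27 to 0.34) and 0.29 (0.25 to 0.34). Their split shifted by 0.01 (-0.04 to 0.07), so the pair was higher by the same amount within counting error. Of the exonic bases of G3bp2, 23.7% lie under opposite-strand exons. Upf1 had 8513 and 7668 counts (-0.18, -0.23 to -0.14) and Ythdf2 3981 and 3431 (-0.24, -0.31 to -0.18). Centred on their chromosomes, Upf1 was at -0.05, Ythdf2 at -0.04, G3bp1 at 0.21 and G3bp2 at 0.42.

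The m6A writer subunits Mettl3 and Mettl14, which work as a heterodimer, were level. Mettl3 had 655 and 695 counts and a log2 ratio of 0.06 (-0.10 to 0.21), and Mettl14 had 907 and 919 and a log2 ratio of -0.01 (-0.14 to 0.12). Mettl3 stood at 1.06 and 1.11 times the FPKM of Mettl14. Their nuclear reader Ythdc1 had 3879 and 4665 counts (0.24, 0.17 to 0.30). Exonic overlap with the opposite strand was 18.4% for Mettl3, 16.8% for Adar and 10.7% for Dgcr8.

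Eif4a3, the core helicase of the exon junction complex, had 5201 and 5511 counts and a log2 ratio of 0.05 (-0.0014 to 0.11). The Eif4a3-like genes Eif4a3l1 (6 and 31 counts) and Eif4a3l2 (0 and 8) were sparse. How the counting treated reads shared among these genes and Eif4a3 is not given in the sources used here. Of the ribonucleases, Dis3, a catalytic subunit of the exosome, had 2508 and 2727 counts (0.09, 0.01 to 0.17). The cytoplasmic 5′ exonuclease gene Xrn1 had 2439 and 2869 (0.20, 0.13 to 0.28), and its nuclear counterpart Xrn2 had 14459 and 11608 (-0.35, -0.38 to -0.31). Linear RNAs, not circles, are the usual substrates of these 5′ exonucleases.

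By chromosome, the 4 genes on chromosome 15 (Ago2, Drosha, Tarbp2 and Tnrc6b) were all above 0, where that chromosome's median was 0.20. Of the 4 on chromosome 4 (median -0.20), Ago1, Esrp1 and Ythdf2 were below 0 and Ago3 above. With every gene centred on its chromosome, 16 of the 33 were above 0 and 17 below, and their median was -0.0053. Centring took 28 of the 33 outside their own counting interval, and Ago2 from 0.16 to -0.04. The part of the chromosome-wide shifts in these ratios was not tested.

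Other genes of the same pathways were read from 8 further lists. Of 149 genes in them with at least 20 counts, 7 were higher and 1 was lower by the size rule. Over all genes the shares were 8.43% higher and 6.24% lower. Of the 7855 well-counted coding genes, 90 were higher and 236 lower, though not all of the 149 are coding or counted that well. The median of the 149 was -0.03. None of 13 microRNA processing cofactors passed, with Ddx5 at -0.06 and Ran, which powers the exportin, at -0.33. None of 32 silencing effectors passed. There Pabpc1, the poly(A)-binding protein gene, was at 0.08, and the chaperone gene Hsp90ab1, on chromosome 17, at -0.56. None passed of 22 further factors of circle formation, export and decay (Eif4g2 at -0.06, Cse1l at -0.38), of 15 m6A genes (Hnrnpa2b1 at 0.01, Alkbh5 at 0.08), of 15 exon junction and nonsense-mediated decay genes (Smg1 at -0.13) and of 21 exosome genes (Eri1 at -0.11, Zfc3h1 at 0.29).

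The host genes of microRNAs, whose transcripts are the substrates of the Microprocessor, split by biotype. Of 20 measured hosts, 5 were higher and none lower, and all 5 were noncoding. The 15 protein-coding hosts had a median of -0.0012 and none passed. Mir205hg (chromosome 1) had 87 and 656 counts, 7.39-fold higher (5.90 to 9.35). Mir22hg (chromosome 11) had 50 and 386, 7.56-fold higher (5.62 to 10.4). Mir100hg (chromosome 9) had 128 and 586, 4.48-fold higher, and Mir17hg (chromosome 14) had 82 and 272, 3.25-fold higher. Dleu2, named after its values were seen, had 68 and 264, 3.80-fold higher. Long noncoding RNA genes as a class were high in the shcircSmad5 library, with 45.7% of 630 called higher and a median of 0.90, and these 5 are to be read against that share.

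**Figure D5:**
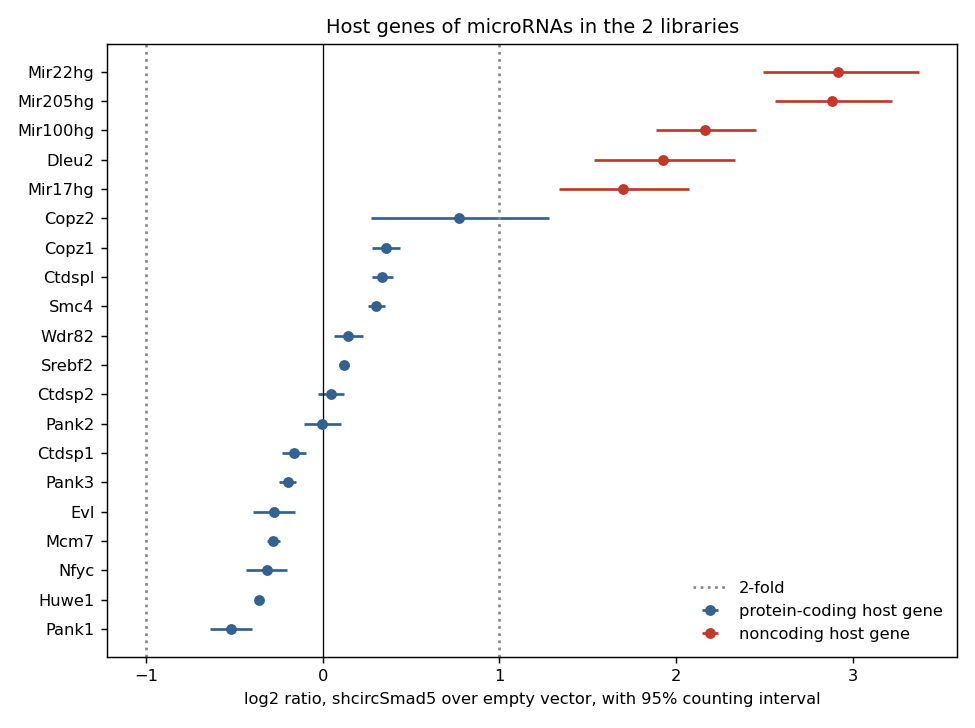
Log2 ratio (shcircSmad5 over empty vector) with its 95% counting interval for the 20 measured microRNA host genes, protein-coding hosts in blue and noncoding hosts in red. The 5 noncoding hosts lie to the right of the 2-fold line and the 15 coding hosts lie within 2-fold, Copz2 with an interval that crosses the line.

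The main mature microRNAs within those 5 hosts are shown so that shared seeds can be seen. Sequences are from RefSeq on GRCm38.p6, 5′ to 3′, with the seed (bases 2 to 8) in capitals, for 12 of 13 mature names looked for. Of the others in Mir100hg, let-7a-5p is named only.
miR-205-5p (Mir205hg): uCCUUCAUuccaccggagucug
miR-22-3p (Mir22hg): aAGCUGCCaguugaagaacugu
miR-100-5p (Mir100hg): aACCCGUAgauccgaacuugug
miR-125b-5p (Mir100hg): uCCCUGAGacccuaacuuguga
miR-17-5p (Mir17hg): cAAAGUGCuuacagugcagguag
miR-20a-5p (Mir17hg): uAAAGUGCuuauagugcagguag
miR-18a-5p (Mir17hg): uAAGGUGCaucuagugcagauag
miR-19a-3p (Mir17hg): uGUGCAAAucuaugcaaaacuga
miR-19b-3p (Mir17hg): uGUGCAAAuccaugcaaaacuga
miR-92a-3p (Mir17hg): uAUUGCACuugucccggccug
miR-15a-5p (Dleu2): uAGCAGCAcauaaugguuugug
miR-16-5p (Dleu2): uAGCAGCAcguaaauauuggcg
The 12 hold 9 seeds. Those of miR-17 and miR-20a, of miR-19a and miR-19b, and of miR-15a and miR-16 are shared. miR-205 is abundant in stratified epithelia such as skin. A host gene's count gives no level of the mature microRNA, which these libraries did not measure.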

How the data were processed

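Gene-level values came from 2 ribosomal RNA-depleted, directional RNA-seq libraries, 1 per line, each made from 3 µg of total RNA per the labels' protocols. The authors deposited whole-number read counts and FPKM per gene, per the file headers. Per the submitters' processing notes, the tools were HISAT2 and HTSeq 0.13.5, and GRCm38 and GRCh38 are both named as builds, with no roles. The strand setting and annotation were not given in the sources used here. Those deposited FPKM equal counts per exon length of GENCODE M21 and per column total for all 33 genes.

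Counts were scaled by TMM (edgeR 4.0.16, R 4.3.3). Each ratio has a 95% interval from the exact Clopper-Pearson limits of how its counts divide between the libraries, and splits between paralogues the exact interval of a conditional odds ratio (scipy 1.17.1). With 1 library per group no test was run. A count of 0 was set to 3 counts. Coordinates are from GENCODE M21, by gene ID.

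The 33 genes and the lists were chosen with earlier results of these data known. Named are all 33, and from each further list up to 4 of the best counted genes past the size rule or, where none passed, the 2 best counted. Of the genes this rule names, 1 is not reported here. The limit of 658 counts and the pair of Mettl3 and Mettl14 were chosen after the data were seen, as was the split of the host genes by biotype. Alternatives were other scalings (DESeq2 1.42.0 size factors among them), log2(FPKM + 0.1), count minimums, fold limits and chromosome centring.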

Additional observations from a re-analysis of the deposited data

How the results depend on the processing

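None of the 33 genes reached 2-fold under total counts, DESeq2 size factors, upper quartile scaling, FPKM or any count minimum. With a 1.5-fold limit 2 did, as did 15 genes of the further lists (8 at 2-fold, and 7 under total counts, upper quartile scaling and FPKM, without Tlr3). The median log2 ratio of the 33 (0.09) was 0.15 with total counts, 0.16 with upper quartile scaling and -0.0053 with chromosomes centred, and their mean was -0.0028. Dgcr8 and Mettl14 turned positive under total counts, upper quartile scaling, FPKM and coding-only TMM, and Mettl14 also under DESeq2 size factors. Centring turned Ago2, Ilf2, Mettl3 and Eif4a3 negative. The cause was not tested. Genes called (1994, 1146 higher and 848 lower) were 902 with a minimum of 100 counts (439 and 463), 3645 at 1.5-fold (1892 and 1753), 1013 at 3-fold (591 and 422), and 326 among the well-counted coding genes (90 and 236), each setting changing which genes or folds qualify. Without length, the share of Ago2 changed by 2.56 points (4.16 by FPKM), of Tnrc6c by -9.52 (-10.6) and of Mbnl1 by 5.01 (5.86). The spread between cultures was not measured. No paired analysis was possible because each group had 1 library.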

Other observations

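Genes that bind or sense double-stranded RNA were the other list with members past the size rule. Of 12 measured, all protein-coding, Ifih1 and Dhx58 were higher and Tlr3 was lower, against 8.43% higher and 6.24% lower over all genes. Of the 7855 well-counted coding genes, 90 were higher and 236 lower, though Ifih1 and Dhx58 fall under that count limit. Ifih1, a cytoplasmic sensor of long duplexes, had 143 and 394 counts, 2.70-fold higher (2.22 to 3.29). Dhx58, its regulator, had 28 and 90 counts, 3.15-fold higher (2.04 to 5.00). Tlr3, the endosomal sensor, had 5360 and 2648 counts, just past the limit at 2.07-fold lower (1.97 to 2.17). Its log2 ratio of -1.05 was -0.98 with total counts, upper quartile scaling and FPKM, and -0.92 with chromosomes centred, all under the limit. The other 9 were within 2-fold.

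At 1.5-fold, 2 of 21 exosome genes were higher and 2 lower, against 13.9% higher and 12.9% lower over all genes. Among the well-counted coding genes the shares were 4.18% and 10.2%, though some of the 21 fall under that count limit. The exosome genes below and the genes after them were named after their values were seen. Mtrex, the helicase that feeds RNAs to the nuclear exosome, had 4429 and 2653 counts, 1.70-fold lower (1.62 to 1.79). Exosc3, a cap subunit, had 567 and 306 counts, 1.89-fold lower (1.64 to 2.18). Exosc5, a ring subunit, had 813 and 1268 counts, 1.53-fold higher, and the cofactor gene C1d had 723 and 1200, 1.63-fold higher. Of the microRNA cofactors, the poly(A) polymerase gene Tent2 had 2279 and 1177 counts, 1.98-fold lower (1.84 to 2.12). Mtrex and Tent2 lie on chromosome 13, whose genes had a median of -0.21. The helicase gene Mov10 was 1.62-fold lower, on 776 and 490 counts.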
